A study of Rattus norvegicus with 64 samples.

Results

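Liver and kidney were compared in rats that had received only the vehicle and whose organs were collected 10 h later. All libraries labelled with the agent vehicle and the time point 10 h were taken, which gave 8 liver and 8 kidney libraries of the 64 in the series. The other libraries came from rats given bromobenzene, a liver and kidney toxicant, at 0.4 g/kg, or from rats sampled at 5 h. The 8 liver and 8 kidney libraries of vehicle rats at 5 h served as a second set of animals for the same contrast. All groups used here were outbred Sprague Dawley rats given 2% saline and no bromobenzene. Sex and age were not stated in the labels. The series text gives 32 rats for the 64 libraries, which is 2 libraries a rat, but the labels do not tie a liver to a kidney. The tests below therefore treat the 16 libraries as separate samples, and replicate numbers only name libraries. Poly(A)-enriched, strand-specific libraries were read as pairs of 150 bases. The protocol text speaks of cultured cells, whereas the labels of every sample give a tissue.

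The liver is dominated by a single cell type, the hepatocyte, which makes most plasma proteins and carries out much of the body's intermediary metabolism and detoxification. The kidney is built from nephrons, whose successive segments hold different epithelial cells with their own transporters and channels. Mitochondria are abundant in both organs, above all in kidney tubules, which reabsorb solutes at a high energy cost. Bulk libraries average over all of these cells, so that fewer cells of a type and less RNA per cell cannot be told apart.

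The tables list 31715 transcripts by Ensembl identifier without gene names, and none of these identifiers could be matched to the reference table. Transcripts are therefore described by identifier, length, rank and level, with no gene name or role. For the same reason the organ labels could not be checked against hepatocyte or tubule markers, and no mitochondrial share could be computed from an annotation. The libraries did separate by labelled organ. Pearson's r of log2(TPM + 1) across transcripts was 0.983 to 0.989 between livers, 0.983 to 0.990 between kidneys and 0.789 to 0.803 between a liver and a kidney. These correlations describe libraries over the same transcripts, which are not independent replicates. Library totals, in units of 1e6 estimated counts, were 17.65 to 24.8 in liver and 17.97 to 21.96 in kidney. The difference between their means, 21.99 ± 2.38 and 19.9 ± 1.64 (SD, n = 8 each), did not pass the threshold (two-sided exact permutation test, p = 0.0618).

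More transcripts were detected in kidney. At a threshold of 1 TPM (the deposited level of a transcript, corrected for its length and for library size), liver libraries held 13240 to 14189 transcripts with a mean of 13779 ± 289 (SD, n = 8). Kidney libraries held 17053 to 17424, with a mean of 17186 ± 129 (SD, n = 8). The groups did not overlap, and the exact permutation p was 0.000155, the smallest that 12870 splits of 8 against 8 can give. Adjusted over the 9 per-library summaries tested, it was 0.0002. The difference was nearly the same after every library had been thinned to the smallest total, with 13780 transcripts in liver and 17183 in kidney. A TPM threshold is relative to all transcripts of a library, and thinning does not change that. At a threshold of 1 count in the thinned libraries the difference (liver minus kidney) was smaller, at -2444 transcripts against -3403.5.

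Of the TPM thresholds used, 1 TPM gave the largest kidney excess, at a liver minus kidney difference of -3407 transcripts. At 0.1 TPM the difference was smaller, at -2810, with means of 19056 in liver and 21866 in kidney. At a threshold of 10 TPM the means were 5872 in liver and 8584 in kidney. At 100 TPM they were 1113 ± 24.02 and 1244 ± 24.6 (SD, n = 8 each). At 1000 TPM the order turned, with 128 ± 2.64 transcripts in liver and 99.0 ± 1.85 in kidney (SD, n = 8 each; exact permutation p = 0.000155). The last 2 thresholds were chosen after the values were seen.

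Most detected transcripts were common to the organs. At 1 TPM, 11969 transcripts were detected in all 8 livers and 15354 in all 8 kidneys, and 11309 belonged to both sets. Only 362 transcripts were detected in all 8 livers and in no kidney, while 1920 were detected in all 8 kidneys and in no liver. Both sets carry the same limit of a TPM threshold. The smaller liver set was the more abundant one. Its median level was 28.1 TPM, 122 of its members reached 100 TPM, and together they held 8.87% of liver TPM. The larger kidney set had a median of 4.07 TPM, had 67 members at 100 TPM or more, and held 3.71% of kidney TPM. At the extreme, 22 transcripts stood at 10 TPM or more in all 8 livers with no count in any kidney, and 24 did so in the opposite direction. A further 11600 transcripts reached 1 TPM in none of the 16 libraries.

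**Figure D1:**
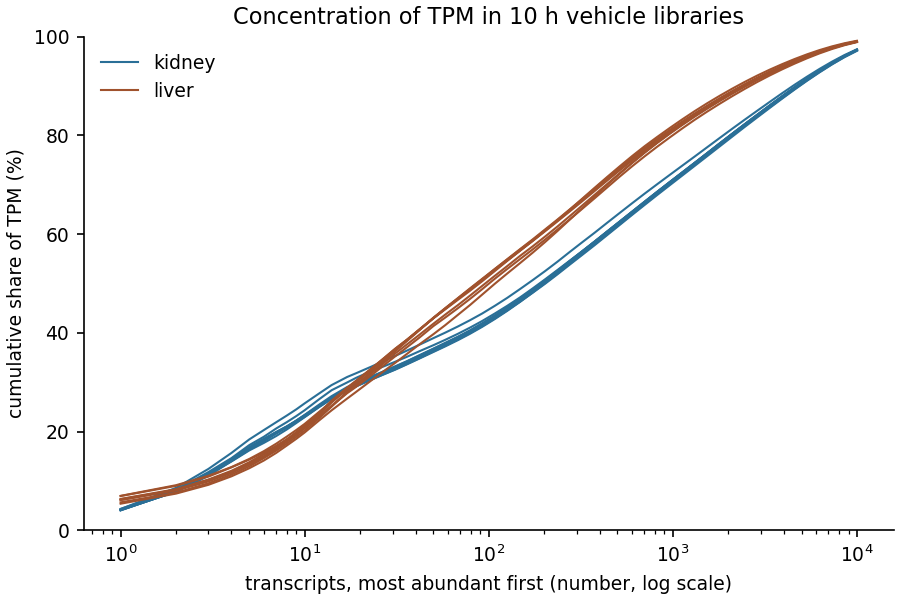
Cumulative share of TPM (percent, vertical axis) against the number of transcripts taken from the most abundant down (log scale) in each vehicle library at 10 h, 1 line per library, with liver in brown and kidney in blue. The kidney lines lie higher at 10 transcripts, where they average 23.6% against 20.8%, and the liver lines lie higher at 100, where they average 51.1% against 42.8%.

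Liver RNA was concentrated in fewer transcripts. In liver, 86 to 109 transcripts held 50% of TPM, with a mean of 92.8 ± 8.46 (SD, n = 8), and in kidney 164 to 204 did, with a mean of 192 ± 12.3 (SD, n = 8). For 90% of TPM the numbers were 2418 ± 113 and 4715 ± 119 (SD, n = 8 each). The top 100 transcripts of a library held 51.1% ± 1.14 of TPM in liver and 42.8% ± 0.865 in kidney, and the top 1000 held 81.1% ± 0.566 and 71.1% ± 0.614 (SD, n = 8 each). The single most abundant transcript held 6.24% ± 0.551 in liver and 4.17% ± 0.108 in kidney (SD, n = 8 each). None of these summaries overlapped between the organs, and each had an exact permutation p of 0.000155 (0.0002 adjusted). The sizes depended on the unit and on the most abundant transcripts. By shares of estimated counts, the number for 50% differed by -523 transcripts (liver minus kidney), against -99.4 by TPM, and the top 100 held 17.2 percentage points more in liver, against 8.29. Without the 10 most abundant transcripts of each organ, the difference in the top transcript's share was 0.22 percentage points, against 2.07, and that in the number for 50% was -238.5.

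The top 10 transcripts were an exception by TPM. They held 20.8% ± 0.558 of TPM in liver, with a range of 19.8% to 21.6%, and 23.6% ± 0.946 in kidney, with a range of 22.9% to 25.7% (SD, n = 8 each; exact permutation p = 0.000155). By shares of estimated counts, which are not corrected for transcript length, the order was the opposite, and the liver's top 10 held 7.74 percentage points more than the kidney's (exact permutation p = 0.000155). Of the kidney's 10 most abundant transcripts by mean TPM, 9 belonged to a block of 13 transcripts that open every deposited table, described below. With these 13 set aside and TPM rescaled, the top 10 held 22.04% ± 0.705 in liver and 7.94% ± 0.341 in kidney (SD, n = 8 each). The number of transcripts that held 50% of TPM then rose to 124.5 ± 9.70 in liver and 506 ± 14.98 in kidney (SD, n = 8 each).

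**Figure D2:**
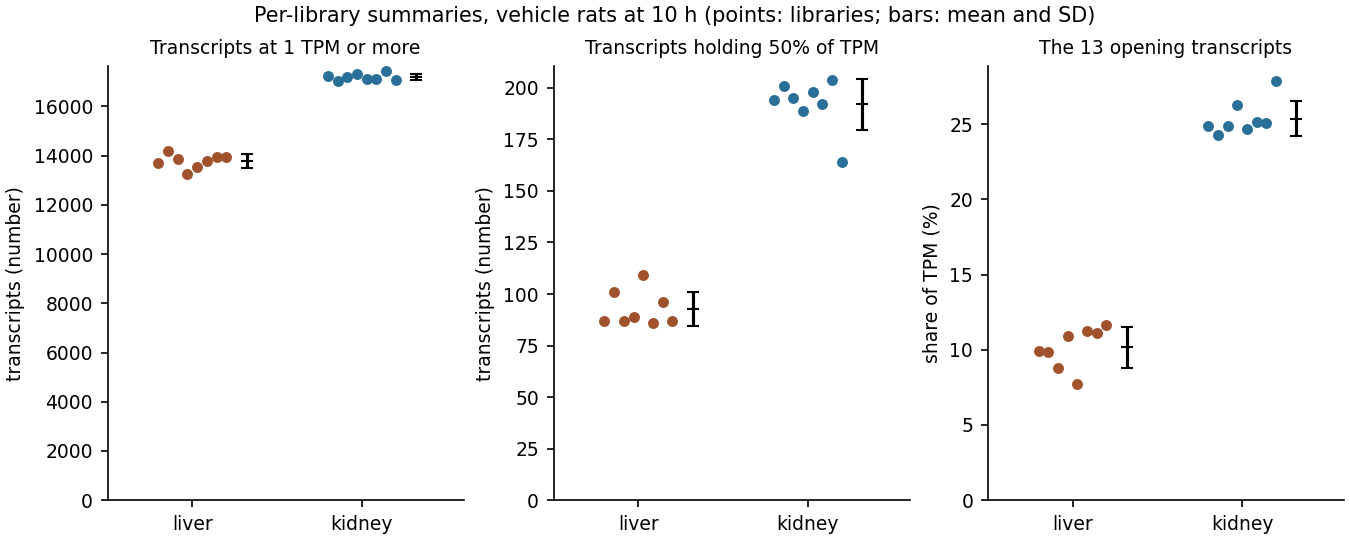
Per-library values in the 8 liver and 8 kidney vehicle libraries at 10 h: transcripts at 1 TPM or more, transcripts that hold 50% of TPM, and the share of TPM (percent) of the 13 transcripts that open every table. Points are libraries and bars are mean and SD; liver and kidney do not overlap in any panel, and kidney replicate 8 stands lowest of the kidneys at 164 transcripts.

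The 13 opening transcripts were abundant in both organs, which their choice by level had fixed. They were picked out after their levels had been seen, because each stood at 677 TPM or more in every one of the 64 libraries while the next transcript in the tables stood at 0.264 to 4.71 TPM. They held 7.74% to 11.6% of liver TPM with a median of 10.4%, and 24.2% to 27.8% of kidney TPM with a median of 24.96%. The kidney share was 2.50 times the liver share, and no liver reached the lowest kidney. As a share of estimated counts, they held 4.32% to 6.19% in liver and 13.3% to 15.8% in kidney. In the 5 h vehicle rats, they held 10.6% ± 1.34 of TPM in liver and 26.2% ± 1.47 in kidney (SD, n = 8 each).

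All 13 stood higher in kidney by TPM without overlap of the libraries, by 2.01 to 2.84 times. The most abundant in both organs was the transcript of 1545 bases at position 3, at 17784 ± 2043 TPM in liver and 41739 ± 1078 in kidney (SD, n = 8 each). The least abundant in both was the transcript of 1830 bases at position 11, at 1409 ± 372 and 3856 ± 450 TPM (SD, n = 8 each). The order of levels was nearly shared, with 8 of the 13 at the same rank in both organs. Every member of the block thus took part in the kidney's larger share, but a kidney excess was not particular to the block. With scaling by library totals, described below, 77.3% of all tested transcripts passed as higher in kidney. The median log2 difference (liver over kidney) was then -1.34 over the block and -1.10 over all tested transcripts. With the main scaling the medians were -0.31 and -0.06. Overlap of libraries was not counted for other transcripts.

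**Figure D3:**
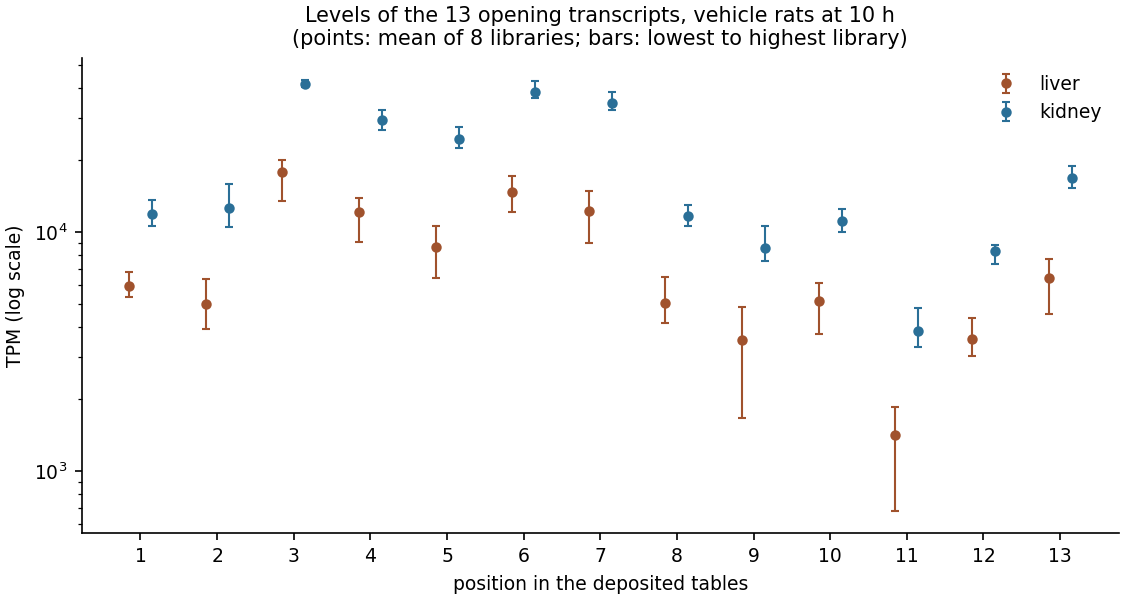
Levels of the 13 opening transcripts (TPM, log scale) by their position in the deposited tables, in vehicle rats at 10 h. Points are means of 8 libraries and bars run from the lowest to the highest library; kidney lies above liver at all 13 positions, by 2.01 to 2.84 times.

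Outside this block the organs shared few of their most abundant transcripts. Their lists of the top 10 by mean TPM had 2 transcripts in common, both from the block. The lists of the top 100 had 31 in common, of which 18 lay outside the block, and the lists of the top 1000 had 567. The 18 held 4.17% of liver TPM and 4.52% of kidney TPM, at liver to kidney ratios of 0.469 to 3.04. The kidney's top 1000 transcripts held 37.6% of liver TPM, whereas the liver's top 1000 held 56.7% of kidney TPM. The lists were similar in the other animals, since the 5 h vehicle rats shared 93 of the liver's top 100 and 95 of the kidney's.

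The most abundant liver transcript was ENSRNOT00000003921.4, of 2069 bases. It stood at 53939 TPM in the lowest liver, 62232 at the median and 69821 in the highest, and at 4.25, 7.88 and 15.1 TPM in kidney. The livers and kidneys lay far apart. The ratio of mean TPM was 7112, and the fitted log2 difference was 13.78 ± 0.33 (SE; edgeR quasi-likelihood test, adjusted p = 3.21e-17). The liver transcript ranked next, of 2324 bases, stood at 20109 ± 1017 TPM against 51.9 ± 14.4 in kidney (SD, n = 8 each). The liver transcript at rank 4, of 701 bases, stood at 17713 ± 1304 TPM against 1.83 ± 1.05 (SD, n = 8 each). The transcript at rank 5, of 1184 bases, was the least organ-restricted of the liver's top 10 outside the block, with 16631 ± 834 TPM in liver and 779 ± 139 in kidney (SD, n = 8 each).

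The liver transcript with the largest fitted log2 difference at a mean of 100 TPM or more was ENSRNOT00000012293.4, of 852 bases. It stood at 959 TPM in the lowest liver, 2085 at the median and 3237 in the highest, and had no count in any of the 8 kidneys. Against a floor of 3 counts per library it was at least 6839-fold higher in liver by CPM, counts scaled by library size (edgeR quasi-likelihood test, adjusted p = 2.27e-11). The livers themselves differed by over 3 times for this transcript, while all kidneys stood at 0.

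The most abundant kidney transcript was ENSRNOT00000050156.3, the member of the block at position 3. Its levels were 40492, 41755 and 43392 TPM in the lowest, median and highest kidney, and 13488, 18515 and 19932 TPM in liver. The kidneys lay within a narrow band above every liver, at 2.35 times the liver mean. Its difference in the fit was small, at a log2 value of -0.24 ± 0.09 (SE; edgeR quasi-likelihood test, adjusted p = 0.0160), and it was -1.28 with scaling by library totals, which is compared with the main scaling below. The only transcript of the kidney's top 10 outside the block was at rank 7, of 1468 bases, with 14423 ± 1672 TPM in kidney and 16.1 ± 4.36 in liver (SD, n = 8 each).

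The kidney transcript with the largest fitted log2 difference at a mean of 100 TPM or more was ENSRNOT00000081614.1, of 2048 bases. It stood at 112 TPM in the lowest kidney, 129 at the median and 147 in the highest, and had no count in any liver. Against the same floor of 3 counts per library it was at least 1163-fold higher in kidney (edgeR quasi-likelihood test, adjusted p = 3.28e-15). The kidney transcript picked by this rule was thus far less abundant than the liver one. Each had no count in the other organ, so the size of its difference has no measurable upper limit. Neither is shown to be the most restricted of its organ.

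Across transcripts, the organs differed for most transcripts tested. Of 18571 transcripts with enough counts, 14270 (76.8%) passed at an adjusted p under 0.05 by edgeR's quasi-likelihood test. Of these, 6769 (36.4% of those tested) were higher in liver and 7501 (40.4%) in kidney. The median size of the difference, in either direction, was 0.78 on the log2 scale, and the median SE was 0.13. Against a difference of at least 2-fold, 6251 transcripts (33.7%) passed, 2501 (13.5%) higher in liver and 3750 (20.2%) higher in kidney. Against 4-fold, 3478 (18.7%) passed, 1251 (6.74%) in liver and 2227 in kidney. Against 16-fold, 1550 (8.35%) passed, 605 (3.26%) in liver and 945 (5.09%) in kidney. The 2501 transcripts higher in liver held 60.1% ± 1.05 of liver TPM and 7.71% ± 0.132 of kidney TPM (SD, n = 8 each). The 3750 higher in kidney held 19.3% ± 0.488 of kidney TPM and 1.11% ± 0.063 of liver TPM (SD, n = 8 each). Kidney-higher transcripts were thus more numerous, and liver-higher transcripts held the larger share of their own organ, but this contrast of shares rests on the scaling described next.

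The direction of many smaller differences depended on how libraries were scaled. These counts used TMM factors, which set the bulk of transcripts level between organs and were 0.657 to 0.732 in liver and 1.39 to 1.46 in kidney. The median log2 difference was -0.06 with these factors and -1.10 with library totals alone, a shift of -1.04. With totals alone, 16650 transcripts (89.7%) passed, 2293 (12.3%) higher in liver and 14357 (77.3%) higher in kidney. All 2293 and all of the 7501 kidney calls above had the same direction under both scalings. Another 3095 transcripts were higher in liver with TMM and higher in kidney with totals. Past 2-fold, totals gave 9832 (52.9%), 1268 (6.83%) higher in liver and 8564 (46.1%) in kidney, and 1268 liver and 3750 kidney transcripts were called under both scalings. With totals, those higher in liver held 51.5% ± 1.05 of liver TPM and those higher in kidney held 58.7% ± 0.468 of kidney TPM (SD, n = 8 each). The block of 13 lay at log2 differences of -0.53 to -0.02 with TMM, all of them smaller than 2-fold, and 8 passed as higher in kidney. With totals it lay at -1.57 to -1.06, where 13 passed and 12 passed 2-fold.

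**Figure D4:**
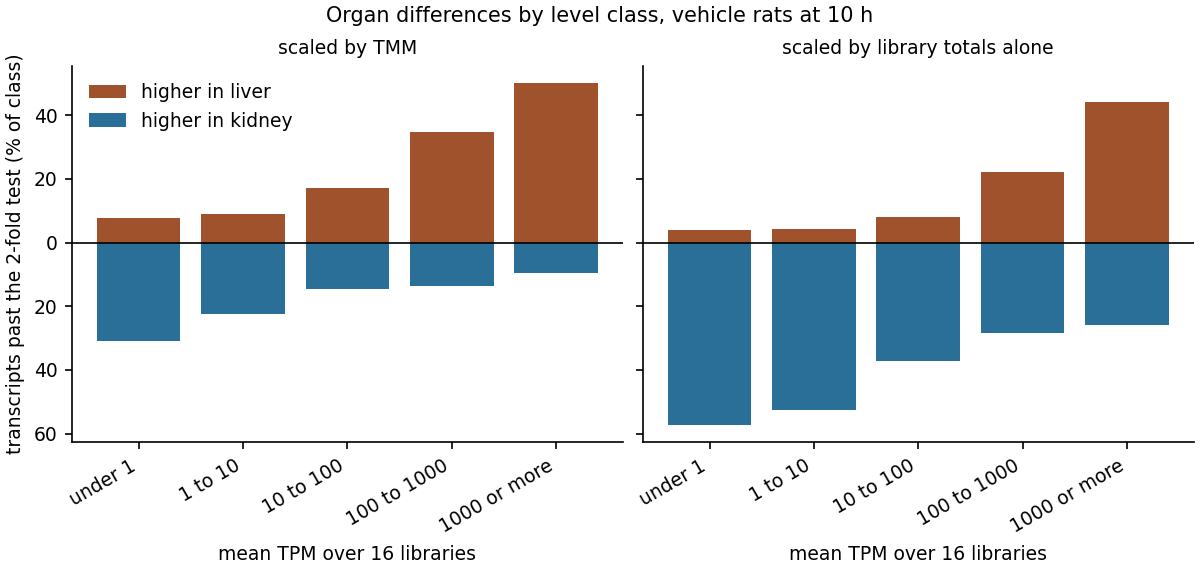
Share of tested transcripts past the 2-fold test (percent of each class, upward for higher in liver and downward for higher in kidney) by mean TPM over the 16 vehicle libraries at 10 h, with TMM scaling on the left and library totals on the right. The liver share grows with level under both scalings, from 7.64% under 1 TPM to 50% at 1000 TPM or more with TMM.

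The balance between the organs changed with level, taken as the mean TPM over the 16 libraries. This mean is built from the values compared, so a transcript can enter a high class through 1 organ alone. The classes therefore do not separate level from the organ difference. Among 2291 tested transcripts with a mean under 1 TPM, 175 (7.64%) were past 2-fold higher in liver and 706 (30.8%) higher in kidney. Among 6516 at 10 to 100 TPM, the counts were 1117 (17.1%) and 952 (14.6%). Among 1149 at 100 to 1000 TPM, they were 397 (34.6%) and 158 (13.8%). Among 104 at 1000 TPM or more, 52 (50%) were higher in liver and 10 (9.62%) in kidney, and 13 of the 42 others were the block. With library totals alone, the kidney count was the larger in every class except the highest, where 46 were higher in liver and 27 in kidney. The transcripts past 2-fold also differed in length, with medians of 1962 bases for liver, 2460.5 for kidney and 2139 for those not past it. Length and level were not separated from each other here.

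Organ-enriched transcripts were listed from the 5 h vehicle rats, in which they were at least 16-fold higher in 1 organ with a mean of at least 5 CPM there. One library of those rats stood apart: kidney replicate 4 at 5 h had 2.05% of its counts from the liver-enriched list, while the other 7 kidneys at 5 h had 0.212% to 0.308%. Of 396 liver-enriched transcripts, 394 were tested at 10 h and 394 passed as higher in liver, beside 36.4% of all transcripts tested. Of 849 kidney-enriched transcripts, 848 passed as higher in kidney, beside 40.4%. Their median log2 differences were 10.17 and -5.65, beside -0.06 over all transcripts tested. The lists were drawn with library totals alone, whereas these calls and differences use TMM, so a 16-fold cut is not the same for both organs. Against 16-fold with TMM, 390 of the liver-enriched and 602 of the kidney-enriched transcripts passed. At 10 h, liver-enriched transcripts held 44.9% ± 1.22 of counts in liver and kidney-enriched transcripts held 14.3% ± 0.241 in kidney (SD, n = 8 each).

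In the other organ these lists held little RNA. The liver-enriched list held 0.234% to 0.254% of kidney counts at 10 h, and the kidney-enriched list held 0.196% to 0.230% of liver counts. No kidney at 10 h stood apart as the 5 h replicate did. In kidney, 259 of the 396 liver-enriched transcripts averaged under 1 CPM, and in liver 570 of the 849 kidney-enriched ones did. When the lists were drawn without kidney replicate 4 at 5 h they held 411 and 858 transcripts, and the liver-enriched share in kidney was 0.276%. The source of the remaining share was not tested.

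Transcript levels varied more among livers than among kidneys. Over 5131 transcripts at 10 TPM or more in both organs, the median coefficient of variation was 10.4% in liver and 7.07% in kidney. It was higher in liver for 4149 of them (80.9%), and for 77.2% to 82.2% when any 1 library was left out. In the 5 h vehicle rats the share was 65.0%. Transcripts share libraries, so these shares are descriptions. The common biological coefficient of variation fitted by edgeR was 0.260 in liver and 0.195 in kidney. It was fitted over all 18571 tested transcripts, including those scarce in 1 organ, and not over the 5131 alone.

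The same contrast in the 5 h rats gave a similar picture. Of 18523 transcripts tested, 13688 (73.9%) passed, 6380 (34.4%) higher in liver and 7308 (39.5%) higher in kidney. At both times 12043 transcripts passed in the same direction, which is 84.4% of the 10 h calls and 88.0% of the 5 h calls, and 103 passed in opposite directions. Detected transcripts numbered 13972 ± 383 in liver and 16993 ± 306 in kidney (SD, n = 8 each; exact permutation p = 0.000155). The organ differences at the 2 times had a Pearson's r of 0.969 across 18197 transcripts, which share the libraries of each time. Without kidney replicate 4 at 5 h, 13608 of 18684 transcripts (72.8%) passed, 6493 (34.8%) higher in liver and 7115 (38.1%) in kidney.

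**Figure D5:**
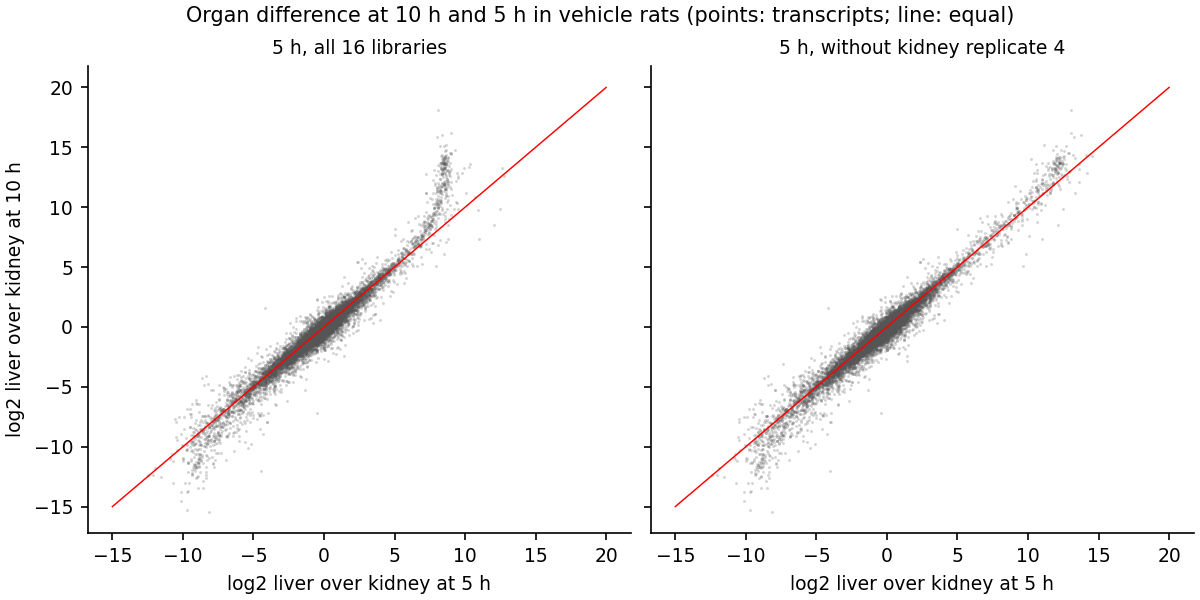
Log2 difference of liver over kidney at 10 h (vertical axis) against 5 h (horizontal axis), 1 point per transcript, with all 5 h libraries on the left and without kidney replicate 4 at 5 h on the right; the line marks equal values. On the left the points at large positive values bend above the line, and on the right they lie nearer to it. The liver-enriched list is not marked.

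A test of the change itself found organ differences that were not the same at 10 h and 5 h for 1952 of 19948 transcripts (9.79%; edgeR quasi-likelihood test of the interaction, adjusted p under 0.05). For 1025 (5.14%) the difference moved toward liver at 10 h and for 927 (4.65%) toward kidney. Without kidney replicate 4 at 5 h, 1785 of 20106 (8.88%) passed, 884 (4.4%) toward liver and 901 (4.48%) toward kidney, and 1683 of the 1785 were among the 1952. That library weighed most on liver-enriched transcripts. With it, 126 of 396 passed, beside 9.79% of all tested, and 125 of them moved toward liver, at a median log2 change of 1.91. Without it, 41 passed, beside 8.88% of all tested, and 36 of them moved toward liver, at a median of 0.33. The most abundant liver transcript, ENSRNOT00000003921.4, was among them. Its change on the log2 scale was 5.37 with the library (adjusted p = 0.00466) and 1.51 without it (adjusted p = 0.0175). That kidney held 2550 TPM of it, and the next highest at 5 h held 54.5. For ENSRNOT00000012293.4, which had no count in the 10 h kidneys and so has no measurable size of change, the adjusted p was 0.0216 with the library and 0.186 without it. Of the 849 kidney-enriched transcripts, 80 passed, beside 9.79% of all tested, and 20 of them moved toward liver and 60 toward kidney. Without kidney replicate 4 at 5 h, 77 passed, beside 8.88%, 18 toward liver and 59 toward kidney. Both enriched lists were drawn from the 5 h libraries, which also enter this test. Counts and medians of list members are therefore descriptions. For ENSRNOT00000050156.3, the most abundant of the 13 opening transcripts, the change was 0.08 (adjusted p = 0.710).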

How the data were processed

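Libraries were quantified per transcript with kallisto 0.42.4 against Rnor_6.0, per the submitters' processing notes. The deposited tables give, for each of 31715 transcripts, an estimated count and a TPM value, both made by the authors, per the file headers. TPM is relative to all transcripts of its library, so a rise in a few abundant transcripts lowers the rest. Estimated counts divide shared reads among isoforms and near-identical copies, so values of such transcripts are uncertain. The steps from there were these. Estimated counts were rounded to whole numbers, filtered with filterByExpr (minimum count 10, total 15), scaled by TMM and tested per transcript with edgeR 4.0.16 (R 4.3.3), robust quasi-likelihood, Benjamini-Hochberg adjusted over all transcripts tested. Differences beyond a fold used glmTreat. Alternatives used limma 3.58.1 and DESeq2 1.42.0. Per-library summaries used two-sided exact permutation tests. Thinning drew every library down to a total of 17.65 in units of 1e6 counts.

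The libraries, lists and tests were chosen with earlier results of these data known. Named transcripts were, in each organ, the one with the highest mean TPM and the one with the largest log2 difference among those that passed with a mean of at least 100 TPM in the higher organ. All 56 pairs of libraries within a group differed by more than sampling noise, with a chi-square of at least 10.3 per degree of freedom. The labels do not say how far replicates were prepared separately. Planned gene lists and the mitochondrial share were not computed, since no names or annotation matched. A planned permutation test of organ-enriched shares was left out, because the lists are defined by the organ difference; the shares are described only.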

Additional observations from a re-analysis of the deposited data

Results flagged for a closer look

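Among the 8 livers at 10 h, replicate 3 stood apart in its share of counts in liver-enriched transcripts, at 47.5% against 45.4% in the next library. Among the 8 kidneys, replicate 8 stood apart in 3 summaries that measure the same concentration of RNA. Its top 100 transcripts held 44.7% of TPM (next 43.2%), its top 1000 held 72.5% (next 71.0%), and 164 transcripts held 50% of TPM (next 189). It also had the highest share of counts in the 13 opening transcripts, at 15.8% (next 14.2%). A gap of this size to the nearest library, relative to the group's range, occurs by chance in about 1 of 20 groups, and these were 5 of 34 groups examined. Both libraries still lay on their own organ's side of every summary that separated the organs.

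The organ difference itself differed between 10 h and 5 h for 1952 transcripts by the interaction test. Without kidney replicate 4 at 5 h the number was 1785.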

How the results depend on the processing

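No label ties a liver library to the kidney library of the same rat. Libraries whose numbers lie 32 apart have the same agent and time in all 32 cases, so a replicate block on these candidate pairs was added after seeing the data. It gave 14072 transcripts past the main test (6613 higher in liver, 7459 in kidney) and 6270 past 2-fold. Across transcripts, the deviations of the 8 pairs from their organ's mean had r of -0.05 to 0.15. Of the 8 livers, 5 correlated best with their own number, and of the 8 kidneys 4 did. The labels do not settle whether the numbers pair the samples, and the main tests would ignore such a pairing. The number of transcripts past the main test was 12842 to 16656 over 12 other settings and 14083 to 14431 with each library left out. In the consecutive run of library numbers, which holds 6 libraries of each organ, it was 13792, and with that run as a covariate 14289; the labels name no batch. The number past 2-fold was 6234 to 6455 with each library left out, and the interaction gave 1583 to 2464. Past the main test, limma gave 2398 higher in liver and 14258 in kidney on log2(TPM + 1), and 2386 and 14219 on log2(TPM + 0.1), near the 2293 and 14357 of library totals; upper quartile scaling gave 5696 and 8624. Totals gave 2326 and 14018 at 5 h. Past 2-fold, totals gave 9832 (1268 and 8564), a 4-fold test 3478 (1251 and 2227) and a 16-fold test 1550 (605 and 945). On log2(TPM + 1), limma found 511 transcripts whose difference moved toward liver at 10 h. The liver minus kidney difference in the top 10 share was -2.87 points by TPM. It was 7.74 by counts, 2.03 without the 10 most abundant transcripts of each organ and 14.1 without the 13 opening transcripts. The difference in TPM-weighted length, 46.2 bases, became -226, -52.3 and -73.3 under the same 3 settings. The difference in detected transcripts, -3407 at 1 TPM, was 29.1 at 1000 TPM. The depth difference, in units of 1e6 counts, was 1.69 to 2.72 with each library left out, and passed without liver replicate 2 (exact permutation p = 0.0107), kidney replicate 6 (0.0469) or kidney replicate 7 (0.0451). Liver-enriched transcripts held 0.496%, 0.109% and 0.197% of kidney with 8-fold lists, 32-fold lists and shares of TPM, and 0.276% with lists drawn without kidney replicate 4 at 5 h. Kidney-enriched transcripts held 0.747%, 0.0666% and 0.163% of liver. In their own organs the shares were 47.9%, 42.1% and 42.7% for liver and 20.02%, 11.1% and 11.9% for kidney. Elsewhere, without the 10 most abundant transcripts of each organ or by counts, the other concentration differences kept their direction. The causes were not tested. Settings that needed gene names or a mitochondrial annotation were not run.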
